A study of Mus musculus with 6 samples.

Results

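The genes described here are Lif, Il6 and Il11, which encode cytokines of the interleukin-6 (IL-6) family, Csf1, Csf2 and Csf3, which encode the colony-stimulating factors of the myeloid lineage, the receptor genes Lifr and Il6st, the transcription factor gene Stat3 and its feedback inhibitor gene Socs3. They were picked by gene symbol, as a family, with earlier results of these data known. All 10 were found among the 54446 genes of the deposited tables, and 9 of them passed the filter for testing, a mean of at least 1 FPKM (fragments per kilobase of gene, scaled to the library's read total) over all libraries. Lifr did not pass.

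Cytokines of the IL-6 family act through receptor complexes that share the signalling chain gp130, the product of Il6st. LIF binds LIFR paired with gp130, whereas IL-6 and IL-11 first bind their own alpha chains. The assembled receptors activate JAK kinases and STAT3, and STAT3 induces Socs3, whose protein binds gp130 and JAK and limits the signal. The colony-stimulating factors drive the survival and maturation of macrophages and granulocytes, which carry their receptors, and tumour cells can release them.

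The samples were libraries of Lewis cells, a mouse lung carcinoma line labelled wild type and described as stem-like, kept in medium with 2% serum. One group was the Control and the other was given RT-MPs (not spelled out in the labels) over 48 h, with 3 libraries in each. The comparison asks which transcripts differ after this treatment. All libraries come from a single line. Nothing says that replicates were grown separately, and the p-values therefore cover the scatter of these libraries alone, which may be technical. As these are bulk samples, fewer cells making a transcript and less transcript per cell cannot be told apart.

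The FPKM values imply totals of 16951057 to 21876572 reads per library. RT-MPs replicate 3 stood apart: its FPKM summed to 585752 against 296966 to 303798 in the other libraries, and the gene Gm23935 alone held 242100 FPKM there against 2844 to 3714 elsewhere. Results that rest on this library are given without it as well. The keratin gene Krt8 and the filament gene Vim averaged 158.8 and 936.2 FPKM, but Epcam and the lung factor gene Nkx2-1 were listed at 0. A mean of 1 FPKM was reached by 2 of 7 epithelial markers (Krt8 and Krt18), by 5 of 6 mesenchymal ones and by 0 of 6 of the lung lineage. Of 10 stem-like markers 5 reached a mean of 1 FPKM (Myc, Cd44, Itga6, Bmi1 and Klf4), and Nanog was listed at 0. Of 10 macrophage markers only Cd68 and Cd14 reached a mean of 1 FPKM. Cd68 rose with treatment, at a log2 change of 0.37 (limma adjusted p = 0.0446), and the summed level of the 10 markers was 37.5 to 41.9 FPKM in Control and 47.1 to 50.7 in RT-MPs. Most of that sum was Cd68 (30.2 and 39.3 FPKM on average), while Cd14 was at 7.98 and 8.47 FPKM and was not called (adjusted p = 0.713). The defining markers Adgre1 and Csf1r were listed at 0 in all libraries, and Ptprc did not exceed 0.006 FPKM. Among 6 neutrophil markers only S100a8 reached a mean of 1 FPKM (30.8), and S100a9 was listed at 0. Among 6 fibroblast markers 4 reached it (Dcn, at 41.1, Pdgfra, Pdgfrb and Lum), while Col1a1 and Col1a2 averaged 0.0065 and 0.0085 FPKM. No lymphocyte or endothelial marker reached it.

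Of the 9 tested genes, Lif and Csf3 rose in RT-MPs, none fell, and 7 were not called by limma over all tested genes at an adjusted p of 0.05. That rule called 1.29% of the 11915 tested genes higher and 2.70% lower, 3.99% in all. Limma voom on reads recovered from the FPKM called Lif and Csf3 too, and over 11910 genes it called 1.73% higher and 5.04% lower, 6.77% in all. At an unadjusted p under 0.05 there were 4 higher (Lif, Csf3, Il6 and Il11) and 1 lower (Il6st), beside 6.37% higher and 20.9% lower, 27.3% in all, over all tested genes. In 5 of the 9 genes (Lif, Il6, Il11, Csf3 and Socs3) each RT-MPs library lay above each Control library, as in 9.61% of tested genes, and in Il6st each lay below, as in 30.4%. Separation in either direction was seen in 40.0% of tested genes. Il6 and Il11 had Control means under 1 FPKM and passed the filter through their treated libraries, so their part in these counts is a description only. Csf1, Csf2 and Stat3 overlapped between groups. The median log2 change of the 9 genes was 0.23, and 0.11 over the 7 left when Il6 and Il11 are set aside, beside −0.09 over all tested genes.

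**Figure D1:**
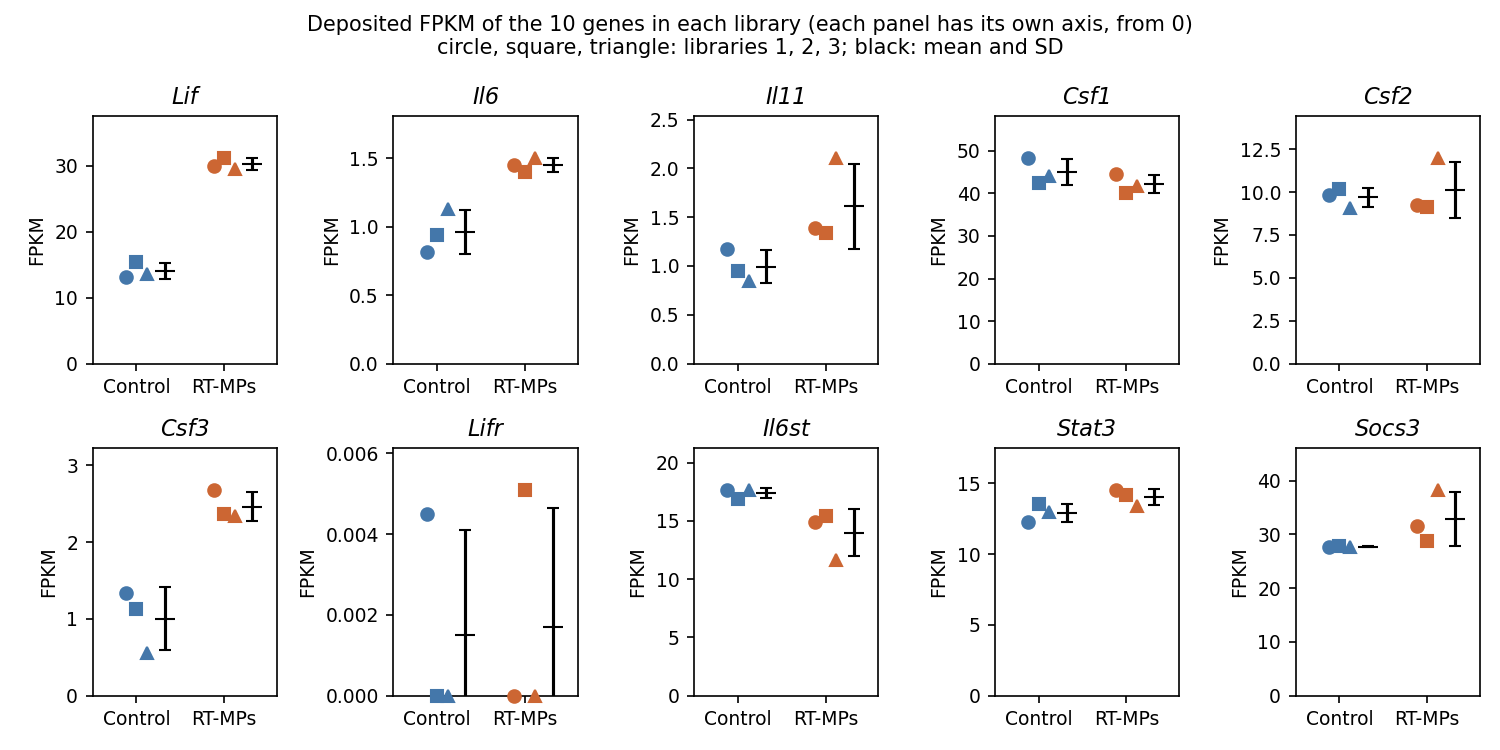
Deposited FPKM of each gene by library, Control in blue and RT-MPs in orange, with circles, squares and triangles for replicates 1, 2 and 3 and the mean and SD in black. All treated libraries exceed all untreated ones for Lif (30.3 against 14.04 FPKM on average) and Csf3 (2.46 against 1.00), while Csf1, Csf2 and Stat3 overlap, and Lifr stays under 0.006 FPKM.

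Lif (ENSMUSG00000034394) encodes leukemia inhibitory factor, best known for keeping mouse embryonic stem cells undifferentiated. It lies on the plus strand of chromosome 11, at 4257557 to 4272514 in mm10. Its Control libraries held 13.2, 15.4 and 13.5 FPKM and its RT-MPs libraries 30.04, 31.3 and 29.5 FPKM. The groups were far apart, and the 3 treated libraries were close together. The means were 14.04 ± 1.21 and 30.3 ± 0.901 FPKM (SD, n = 3 in each group), a ratio of 2.16. The log2 change was 1.06 (SE 0.07, adjusted p = 0.0109 with limma), above that of 99.7% of tested genes. Each library held at least 1137 reads of Lif.

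The log2 change of Lif lay between 1.02 and 1.12 with any library left out. Limma called 0 of all tested genes without Control replicate 1 or 3, where the adjusted p of Lif was 0.106 and 0.144. Without Control replicate 2 it called 2 genes, and Lif was among them (adjusted p = 0.0391). The adjusted p of Lif was 0.0033 without RT-MPs replicate 3, where 21.4% of all tested genes were called, 6.26% higher and 15.1% lower.

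The 5 genes outside the family whose values followed Lif most closely over the 6 libraries, out of 9358 compared, were Nos2, Pgf, Fam71f2, Sprr2h and Smtn. Likeness was the root mean square difference of log2(FPKM + 1) after each gene's Control mean was taken off, and it ran from 0.079 for Nos2, the inducible nitric oxide synthase gene, to 0.146 for Smtn, a smooth muscle cytoskeleton gene. Pgf encodes placental growth factor and Sprr2h a small proline-rich protein. The Nos2 means were 85.8 and 166.6 FPKM in Control and RT-MPs, so a like course was seen at several times the level of Lif.

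Il6, the founding cytokine of the family, was low throughout. Its Control libraries held 0.815, 0.942 and 1.13 FPKM and its RT-MPs libraries 1.45, 1.40 and 1.51 FPKM. All treated values were above all untreated ones, at 62 to 77 reads against 41 to 53. The log2 change of 0.32 (SE 0.10, adjusted p = 0.102) did not pass the test, and its 95% interval was 0.09 to 0.56. Because 1 is added to each value before the log, such changes of low genes are understated: the ratio of the mean FPKM was 1.51.

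Il11, a cytokine made by stromal and tumour cells, held 1.18, 0.952 and 0.850 FPKM in Control and 1.39, 1.33 and 2.11 FPKM in RT-MPs. The groups did not overlap, and RT-MPs replicate 3 was the highest library. The log2 change was 0.38 (SE 0.14, adjusted p = 0.146) and 0.25 without RT-MPs replicate 3 (adjusted p = 0.145).

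The wider family held 10 ligand genes, of which 6 were tested, 2 rose (Lif and Clcf1) and 4 were not called. Limma called 1.29% of all tested genes higher. None of the 6 was lower by limma, by limma voom or at an unadjusted p under 0.05, beside 2.70%, 5.04% and 20.9% of all tested genes. Il6 and Il11 passed the filter through their treated libraries, so their part in these counts is a description only. Clcf1, which encodes cardiotrophin-like cytokine factor 1, a ligand of the ciliary neurotrophic factor receptor, had 7.83, 7.28 and 8.01 FPKM in Control and 10.1, 12.7 and 14.5 FPKM in RT-MPs. The groups did not overlap, and the treated libraries were spread more widely than the untreated ones. Its log2 change was 0.62 (SE 0.12, adjusted p = 0.0476) and 0.51 without RT-MPs replicate 3. It was called without RT-MPs replicate 1 or 3 and not with any other library left out, up to an adjusted p of 0.216 without Control replicate 3. Osm, the oncostatin M gene, averaged 1.497 FPKM in Control and 1.56 FPKM in treated libraries. For Ctf1, the cardiotrophin 1 gene, these means were 1.33 and 1.12 FPKM, and both genes overlapped between the groups. Cntf, Il27, Ebi3 and Il31 were below the filter, the highest at a mean of 0.614 FPKM, and Il31 was listed at 0 in all libraries.

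Among the colony-stimulating factors only Csf3 rose. Csf3, on chromosome 11 at 98701263 to 98703629, encodes granulocyte colony-stimulating factor (G-CSF), which drives neutrophil production. Its Control libraries held 1.33, 1.13 and 0.550 FPKM and its RT-MPs libraries 2.69, 2.37 and 2.34 FPKM. All treated libraries lay above all untreated ones, and Control replicate 3, with 15 reads, was the lowest. The means were 1.00 ± 0.406 and 2.46 ± 0.193 FPKM (SD, n = 3 in each group), a ratio of 2.45, and the log2 change was 0.81 (SE 0.16, adjusted p = 0.0470 with limma).

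This call was near the threshold. Csf3 was called without RT-MPs replicate 3 (log2 change 0.83, adjusted p = 0.0264) and was not called with any other library left out. The adjusted p was then 0.184, 0.143 and 0.178 without Control replicates 1, 2 and 3, and 0.0971 and 0.103 without RT-MPs replicates 1 and 2. Over all tested genes, limma called 21.4% without RT-MPs replicate 3 and 74 genes without RT-MPs replicate 1. It called 0, 2 and 0 genes without Control replicates 1, 2 and 3. The log2 change of Csf3 was 1.37 by limma voom on reads recovered from the FPKM and 0.32 with a pseudocount of 5.

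Csf1 encodes macrophage colony-stimulating factor and had the highest level per length of the 10 genes. Its libraries held 48.4, 42.4 and 44.2 FPKM in Control and 44.5, 40.2 and 41.9 FPKM in RT-MPs. The groups overlapped, and the log2 change was −0.09 (SE 0.07, adjusted p = 0.45), with a 95% interval of −0.26 to 0.08. With median-ratio scaling it was 0.01, so its sign depended on the scaling.

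Csf2, the gene of granulocyte-macrophage colony-stimulating factor (GM-CSF), held 9.84, 10.2 and 9.06 FPKM in Control and 9.26, 9.11 and 12.0 FPKM in RT-MPs. Only RT-MPs replicate 3 stood above the Control range. The log2 change was 0.05 (SE 0.11, adjusted p = 0.789), with an interval of −0.21 to 0.31, and −0.07 without RT-MPs replicate 3. The antisense gene Gm12223 overlaps Csf2 and had 0.202 to 0.670 FPKM; whether counting used strand is not given in the sources used here. Il34, which encodes a further ligand of the CSF1 receptor, was at 12.7 ± 0.311 and 13.5 ± 2.70 FPKM and was not called.

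**Figure D2:**
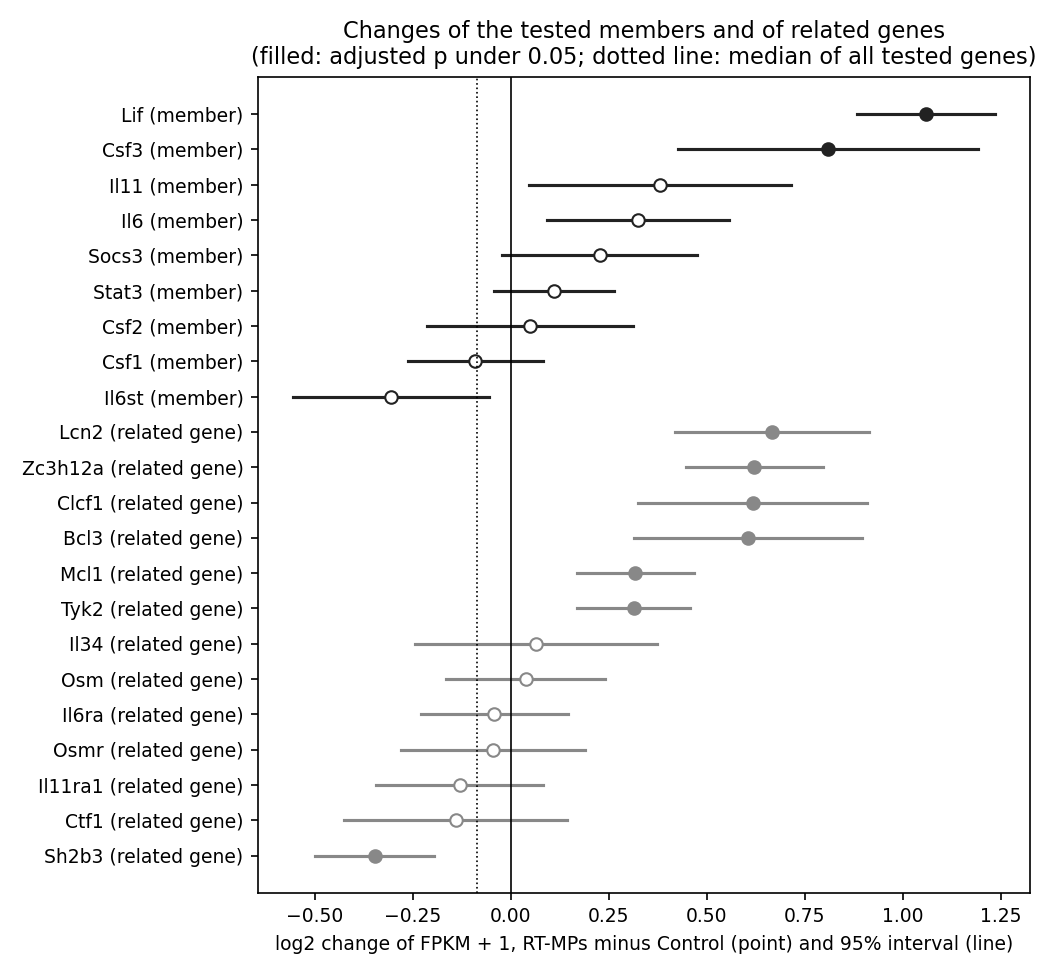
Log2 change of FPKM + 1 (RT-MPs minus Control) with its 95% interval from limma for the 9 tested genes (black) and for related genes named in the text (grey). Filled points passed an adjusted p of 0.05 and the dotted line is the median of all tested genes, −0.09; Lif, at 1.06, has the highest value and Sh2b3, at −0.35, the lowest of those drawn.

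Messenger RNAs of such cytokines often carry AU-rich elements in their 3′ untranslated region (3′ UTR), repeats of the pentamer ATTTA through which proteins such as tristetraprolin speed their decay. The pentamer was counted, on the transcript strand and with overlaps, in the longest annotated 3′ UTR of each gene in GENCODE M21. Whether the pentamers bear on the changes between groups was not tested. The windows of 30 bases with the most pentamers in the 6 ligand genes are shown side by side, with pentamers in capitals.
Lif: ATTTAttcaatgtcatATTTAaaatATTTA
Csf3: gtttATTTAtctctATTTAatATTTAtgca
Il6: atttttaATTTAttgataATTTAaataagt
Il11: ccagatcttATTTATTTATTTAttttggta
Csf2: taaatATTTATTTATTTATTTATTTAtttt
Csf1: taaggtcATTTAaatatctATTTAaaaaat

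These windows lie at chr11:4272414-4272443 (plus strand) for Lif, chr11:98702988-98703017 (plus) for Csf3, chr5:30019684-30019713 (plus) for Il6, chr7:4773498-4773527 (minus) for Il11, chr11:54247325-54247354 (minus) for Csf2 and chr3:107741103-107741132 (minus) for Csf1, all in mm10. Csf2 had the densest 3′ UTR, with 28.4 pentamers per kb (9 in 317 bases), above 99.9% of the 10254 tested genes that have a 3′ UTR. Csf3 had 8.97, Il11 8.38 and Il6 6 per kb, each above at least 96.0% of those genes. Lif had 2.20 per kb, 7 in 3180 bases, and Csf1 1.89 per kb, beside a median of 1.35 per kb in tested genes. The nonamer TTATTTATT was present in Il11 (5), Csf2 (4) and Lif (2) and in 8.45% of tested genes, and a match is a description of the letters only.

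**Figure D3:**
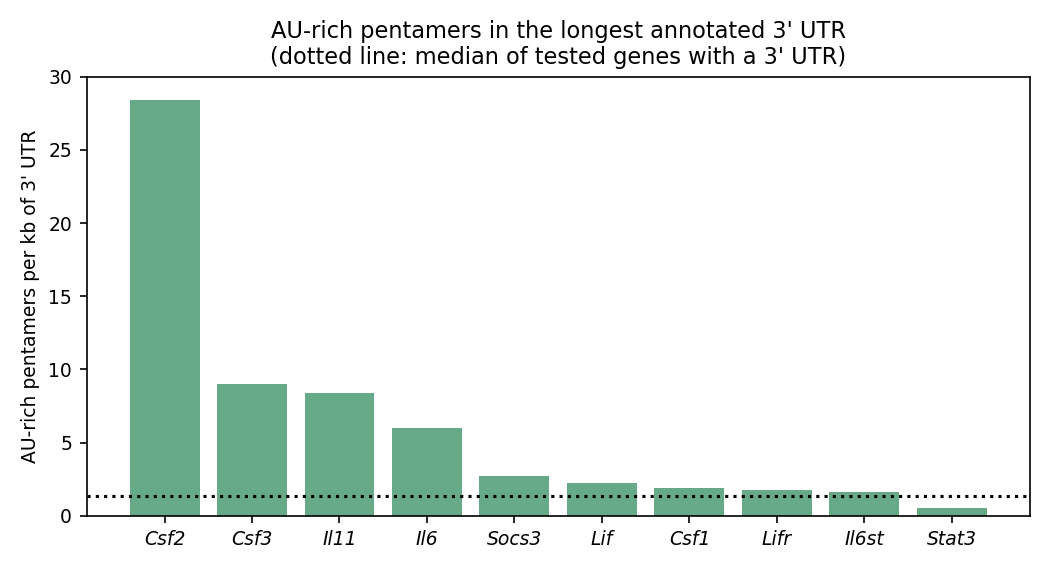
AU-rich pentamers per kb of the longest annotated 3′ UTR of each of the 10 genes, with the median of tested genes, 1.35, as a dotted line. Csf2 stands at 28.4 per kb, Csf3, Il11 and Il6 between 6 and 8.97, and Stat3 alone is below the median.

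Promoter windows of 250 bases before the transcription start were available from RefSeq (GRCm38.p6) for 9 of the 10 genes, in 11 windows. Csf3 was the gene without a window, so it was not searched. The Csf2 window (chr11:54249900-54250149, minus strand) does not reach the gene's start in GENCODE M21, at 54249667, and the bases between were not searched. Both strands were searched for the AP-1 motif TGANTCA, the STAT motif TTCNNNGAA and the NF-kB consensus. AP-1 matched in windows of Lif, Il6 and Il11, for Il11 only in the window at chr7:4778142-4778391. The motif matched in 6.75% of all 32851 promoter windows. The NF-kB consensus matched in Lif, Il6 and Csf1 and in 7.25% of all windows. Whether these matches bear on expression was not tested, and of the matched genes only Lif was called. Lif and Il6 held both motifs, as did 0.356% of all windows, and their windows are shown for that feature. Capitals mark the AP-1 match, which comes first in each, and the NF-kB match.
Lif (chr11:4257318-4257567, plus strand): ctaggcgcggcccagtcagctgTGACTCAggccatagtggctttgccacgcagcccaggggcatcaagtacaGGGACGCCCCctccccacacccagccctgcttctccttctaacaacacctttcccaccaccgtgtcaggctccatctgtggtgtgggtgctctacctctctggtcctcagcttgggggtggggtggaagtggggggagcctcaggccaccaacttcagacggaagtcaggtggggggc
Il6 (chr5:30012864-30013113, plus strand): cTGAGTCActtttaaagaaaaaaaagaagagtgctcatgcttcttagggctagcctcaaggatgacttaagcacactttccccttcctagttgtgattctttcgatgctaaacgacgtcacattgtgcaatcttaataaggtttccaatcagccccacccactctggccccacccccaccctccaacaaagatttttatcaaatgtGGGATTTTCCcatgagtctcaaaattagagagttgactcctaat

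The NF-kB match of Il6 ended 35 bases before the start, and that of Lif 169 bases before it. The STAT motif matched in the window of Socs3 alone among the 11, as TTCTTAGAA, and in 7.02% of all windows. No matched window shows that a factor was bound.

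No receptor gene passed the test. Lifr, the ligand-binding partner that LIF needs, had 1 read in Control replicate 1, 1 read in RT-MPs replicate 2 and none in the other 4 libraries. A floor of 3 reads corresponds to 0.0127 to 0.0164 FPKM, so Lifr was at the floor of the depth in both groups, and no change could be measured. Il6st, at 17.4 FPKM in Control, was thus expressed with almost no Lifr transcript beside it.

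Il6st, which encodes gp130 (chromosome 13, 112464070 to 112510086), held 17.7, 16.9 and 17.6 FPKM in Control and 14.9, 15.4 and 11.7 FPKM in RT-MPs. All treated libraries lay below all untreated ones, and RT-MPs replicate 3 was the lowest. The log2 change was −0.30 (SE 0.11, adjusted p = 0.131), short of the threshold. Leaving out RT-MPs replicate 3 gave −0.19, which passed (SE 0.04, adjusted p = 0.0278), in a setting where 15.1% of all tested genes were called lower.

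Of 8 receptor genes of the family 4 were tested and none was called by limma or limma voom, with 1 (Il6st) at an unadjusted p under 0.05. Il6ra, the IL-6 binding chain, had means of 6.21 ± 0.396 and 6.01 ± 0.468 FPKM in Control and RT-MPs, and its groups overlapped. Il11ra1, the IL-11 binding chain, was at 1.87 and 1.62 FPKM, and Osmr, the oncostatin M receptor gene, at 1.66 and 1.58 FPKM. The log2 change of these 4 genes was negative, with a median of −0.09 beside −0.09 over all tested genes. The other 4 receptor genes, among them Cntfr and Lifr, were below the filter at means of at most 0.568 FPKM.

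None of the 5 receptor genes of the colony-stimulating factors reached the filter, and the highest mean among them was 0.0189 FPKM. Csf1r and Csf2ra were listed at 0 in all 6 libraries, and Csf3r was listed at 0 in all but Control replicate 1. The cells thus carried Csf1, Csf2 and Csf3 transcripts with receptor transcripts at or near 0.

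**Figure D4:**
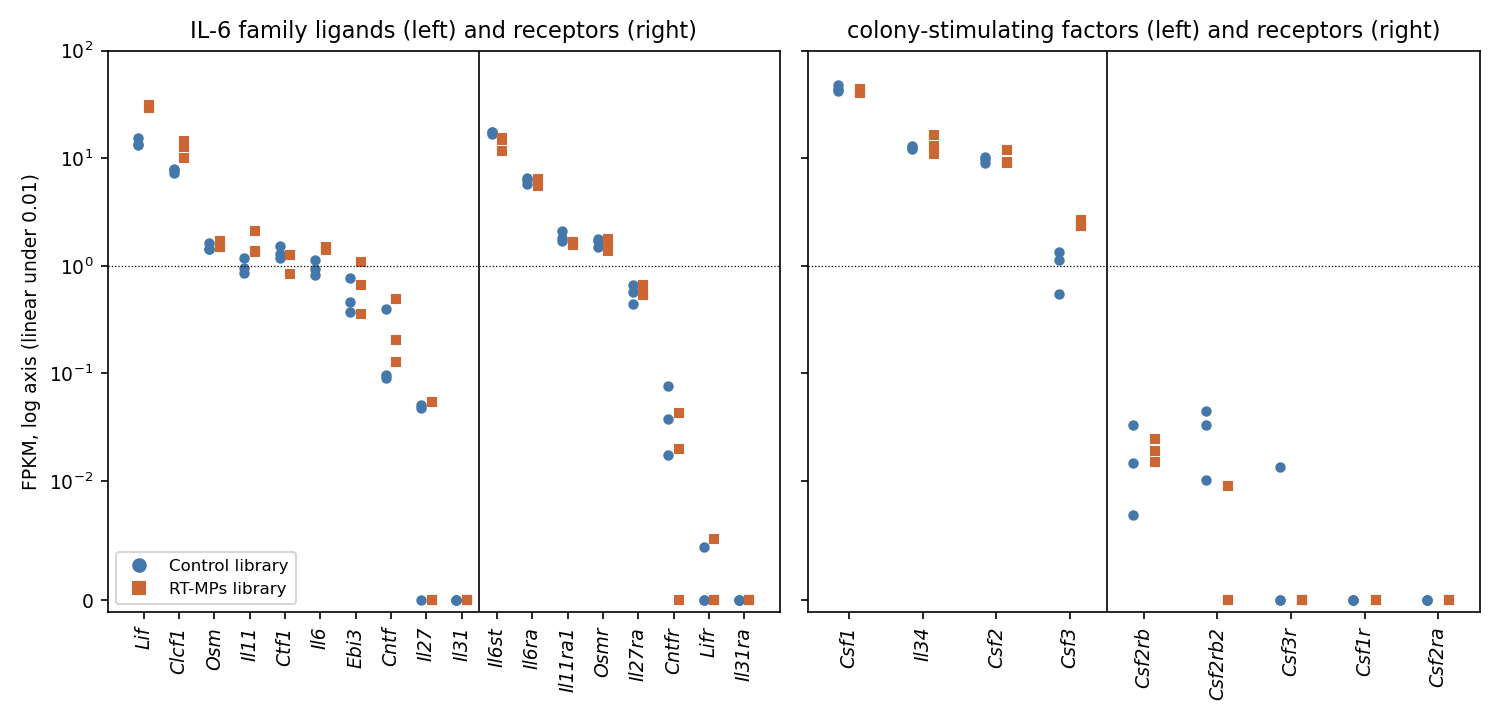
FPKM of each ligand and receptor gene in every library on a log axis that is linear under 0.01, with IL-6 family genes on the left and colony-stimulating factor genes on the right, Control as circles and RT-MPs as squares; the dotted line is the filter of 1 FPKM. Il6st and Il6ra lie above 5 FPKM in all libraries, whereas Lifr and all 5 receptors of the colony-stimulating factors lie under 0.05.

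Ordered by level per length, the untreated cells had most Csf1 (45.0 FPKM), then Socs3 (27.7), Il6st (17.4), Lif (14.04), Stat3 (12.9) and Csf2 (9.69). Csf3, Il11 and Il6 followed at 1.00, 0.992 and 0.963 FPKM, and Lifr came last. Lif and Stat3 overlapped in Control, and Csf3, Il11 and Il6 could not be ordered, while the other neighbours were separated in all 3 libraries. In treated cells Lif, at 30.3 FPKM, stood above Stat3 and Il6st in all libraries and overlapped with Socs3 (32.8). Csf3, at 2.46 FPKM, was above Il11 in all treated libraries.

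Stat3, the shared transcription factor of these receptors, held 12.3, 13.6 and 13.0 FPKM in Control and 14.6, 14.2 and 13.4 FPKM in RT-MPs. The groups overlapped, and the log2 change was 0.11 (SE 0.06, adjusted p = 0.309), with a 95% interval of −0.04 to 0.26. Rescaling each library to a common sum made it −0.18, while relative to the median of all tested genes it lay between 0.13 and 0.23 under the alternatives tried. Stat3 overlaps the neighbouring gene Stat5a at its end, and Stat5a was at 1.55 and 1.33 FPKM.

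Of the 6 JAK and STAT genes described, 1 rose and 5 were not called, beside 1.29% higher over all tested genes. Without RT-MPs replicate 3 the genes Tyk2 and Jak1 were called higher, as were 6.26% of all tested genes. Tyk2, a JAK kinase gene of cytokine and interferon receptors, rose by 0.31 on the log2 scale (SE 0.06, adjusted p = 0.0451), with means of 14.4 ± 0.111 FPKM in Control and 18.2 ± 0.978 FPKM in treated libraries. The groups did not overlap. Tyk2 was called without RT-MPs replicate 3 and not with any other library left out, at an adjusted p of up to 0.23. Without Control replicate 1 or 3, limma called 0 of all tested genes.

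Socs3, the STAT3-induced feedback gene on chromosome 11 (117966079 to 117970047), held 27.6, 27.9 and 27.7 FPKM in Control and 31.5, 28.7 and 38.3 FPKM in RT-MPs. The untreated libraries were nearly identical and the treated ones were all higher but widely spread, with RT-MPs replicate 3 at the top. The log2 change was 0.23 (SE 0.10, adjusted p = 0.216) and 0.11 without RT-MPs replicate 3 (adjusted p = 0.13). Rescaling to a common sum made it −0.07, while relative to the median of all tested genes it lay between 0.17 and 0.42 under the alternatives tried.

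Among 12 inhibitors and phosphatases of this pathway, 8 were tested, 1 fell and 7 were not called, beside 2.70% lower over all tested genes. None was higher by limma, by limma voom or at an unadjusted p under 0.05, beside 1.29%, 1.73% and 6.37% of all tested genes. Sh2b3, which encodes the adaptor LNK, an inhibitor of JAK2 signalling, went from 12.0 ± 0.574 to 9.20 ± 0.364 FPKM and fell by 0.35 (SE 0.06, adjusted p = 0.0414). It was called without RT-MPs replicate 3 and not with any other library left out, where the adjusted p reached 0.22. Limma called 15.1% of all tested genes lower without RT-MPs replicate 3, and 0 in either direction without Control replicate 1 or 3. Socs2 and Ptprd were listed at 0 in all libraries. None of 7 adaptor genes that link gp130 to ERK and PI3K was called by limma or limma voom, with 1 (Shc1) at an unadjusted p under 0.05, which also passed without RT-MPs replicate 3, and their median log2 change was −0.11.

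Of 24 genes known as STAT3 targets, 19 were tested, 3 rose and 16 were not called, beside 1.29% higher over all tested genes. None fell by limma or limma voom, and at an unadjusted p under 0.05 there were 7 higher and 2 lower, shares to be read beside the 6.37% and 20.9% of all tested genes. The list's count moved to 9 without RT-MPs replicate 3. These were 6 higher (Lcn2, Bcl3, Mcl1, Pim1, Junb and Cebpb) and 3 lower (Il6st, Ccnd1 and Tnfrsf12a). In that setting limma called 6.26% of all tested genes higher and 15.1% lower. The list's count was 0 with any other library left out. The list includes Socs3, Stat3 and Il6st. Lcn2, the gene of the iron-carrier-binding protein lipocalin 2, had 51.0, 50.1 and 49.1 FPKM in Control and 76.9, 71.1 and 93.8 FPKM in RT-MPs, with a log2 change of 0.67 (SE 0.10, adjusted p = 0.0335). Bcl3, an I-kappa-B family co-regulator, averaged 5.57 ± 0.667 and 9.02 ± 1.44 FPKM, and its log2 change was 0.60 (SE 0.12, adjusted p = 0.0478). Mcl1, an anti-apoptotic gene of the BCL2 family, averaged 85.4 ± 2.06 and 106.8 ± 5.97 FPKM, and its log2 change was 0.32 (SE 0.06, adjusted p = 0.0470). In all 3 genes the treated libraries lay above the untreated ones, and Lcn2 and Bcl3 were highest in RT-MPs replicate 3.

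The log2 changes of these genes without RT-MPs replicate 3 were 0.55, 0.49 and 0.36, and each passed the test there. With any other library left out none of the 3 passed, at adjusted p up to 0.195 for Lcn2 and 0.23 for Bcl3 and Mcl1. Without Control replicate 1 or 3, limma called 0 of all tested genes. The list's median log2 change was 0.11, beside −0.09 over all tested genes, and 12 of 19 had a positive change. Lcn2 and Bcl3 are also known targets of NF-kB. Of the list, 5 genes were below the filter.

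Of 10 genes whose products act on AU-rich or stem-loop elements of cytokine mRNAs, all were tested, 1 rose and 9 were not called. Over all tested genes limma called 1.29% higher. Without RT-MPs replicate 3 the count was 5, with 4 higher (Zc3h12a, Zfp36, Zfp36l1 and Hnrnpd) and 1 lower (Zfp36l2). In that setting limma called 6.26% of all tested genes higher and 15.1% lower. Zc3h12a, which encodes the ribonuclease Regnase-1, known to cleave Il6 mRNA, held 15.3, 15.7 and 15.6 FPKM in Control and 22.8, 23.8 and 26.9 FPKM in RT-MPs. The groups were far apart relative to their spread. The log2 change was 0.62 (SE 0.07, adjusted p = 0.0235) and 0.55 without RT-MPs replicate 3. It was called without RT-MPs replicate 1 or 3 and not with any other library left out, at up to 0.184 without Control replicate 1. Over all tested genes, limma called 74 without RT-MPs replicate 1 and 0 without Control replicate 1 or 3. Zfp36, the tristetraprolin gene, was at 5.47 ± 0.281 and 7.17 ± 0.730 FPKM, which missed the threshold (log2 change 0.33, adjusted p = 0.0727) and passed without RT-MPs replicate 3 (adjusted p = 0.0355). Its relatives Zfp36l1 and Zfp36l2 had log2 changes of 0.22 (adjusted p = 0.0718) and −0.21 (adjusted p = 0.103), and passed without that library at 0.0201 and 0.0289.

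**Figure D5:**
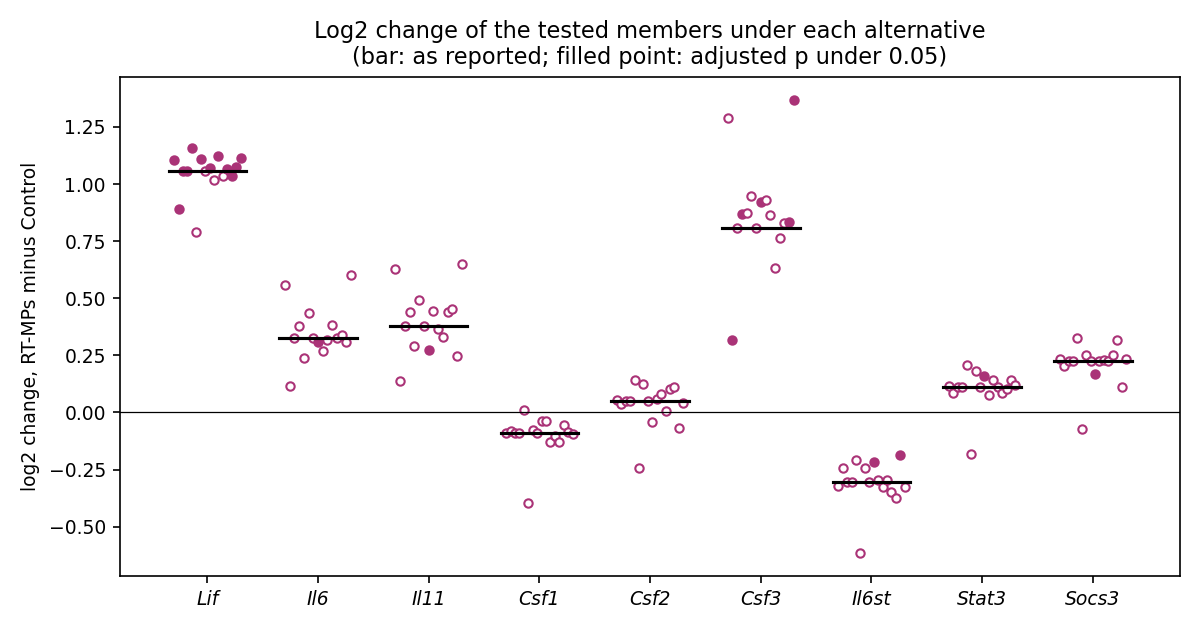
Log2 change (RT-MPs minus Control) of the 9 tested genes as reported (bar) and under each alternative (points, filled where the adjusted p was under 0.05). Lif stays between 0.79 and 1.16, Csf3 between 0.32 and 1.37, and Csf1, Csf2, Stat3 and Socs3 reach both sides of 0.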

How the data were processed

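The authors deposited FPKM values, 1 table per library, for 54446 genes with Ensembl identifiers and symbols. Reads were aligned with HISAT2 to mm10, per the submitters' processing notes; for the counter, the annotation and the strand setting, the version or choice was not given in the sources used here. RNA was extracted with Trizol and libraries came from a stranded mRNA kit, per the labels' protocols. FPKM depends on the library total, so abundant transcripts lower all other values.

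Groups came from the sample labels. RT-MPs was compared with Control (3 libraries each) on log2(FPKM + 1) in 11915 genes with a mean of at least 1 FPKM, by a two-sided test with limma version 3.58.1 (eBayes, trend on, under R version 4.3.3) and a threshold of 0.05 after Benjamini-Hochberg adjustment over the whole set. Single-gene adjusted p-values come from this fit. Groups of 3 against 3 allow no exact permutation p under 0.1, so none is given.

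GENCODE M21 (mm10) supplied exon lengths, positions and 3′ UTRs and held 54409 of the identifiers. Each library's depth is the total at which low FPKM values, multiplied by exon length, came closest to whole reads; at least 99.0% of those checked then lay within 0.1 read of a whole number. Reads over genes summed to 102.6% of them, so what the totals count is not known.

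The 10 genes, the related lists and the markers were chosen with earlier results of these data known. Some genes of the lists are not reported here, and the lists' counts and medians leave them out. Genes named are the 10, the tested ligand and receptor genes, called list members, the 5 genes closest to each called member with a mean of at least 2 FPKM, and other list members, markers or overlapping genes picked after their values were seen. Alternatives were other pseudocounts and filters, 3 scalings, the replicate number as a term, arrayWeights, each library left out and limma voom on recovered reads. Tables were made with pandas 2.3.3 and numpy 2.4.6 under Python 3.11.15, and plots with matplotlib 3.10.9.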

Additional observations from a re-analysis of the deposited data

How the results depend on the processing

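Of the 10 genes, 2 (Lif and Csf3) were called as reported. The count was 1 (Lif) with a pseudocount of 0.1, without a filter, with a filter of 5 FPKM (where Csf3 was not tested) and with quantile normalization, 0 after rescaling to a common sum (TPM; 2 at an unadjusted p under 0.05), and 7 with arrayWeights, which added Il6, Il11, Il6st, Stat3 and Socs3. It lay between 0 and 3 with a library left out. Over all tested genes, 476 were called as reported (154 higher, 322 lower), 26 without a filter, 46 after rescaling to a common sum, 4576 with arrayWeights and 806 by limma voom on recovered reads, and between 0 (without Control replicate 1 or 3, where 1935 and 1839 had an unadjusted p under 0.05) and 2548 (without RT-MPs replicate 3) with a library left out. Median-ratio scaling called 231 higher and 136 lower, and quantile normalization 195 and 153. Rescaling to a common sum moved the median change over the tested genes, in log2, from −0.09 to −0.38; relative to it Lif was between 0.94 and 1.21 under all alternatives.

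Signs turned for Csf1 with median-ratio scaling (0.0115), for Csf2 after rescaling to a common sum (−0.24), with arrayWeights (−0.0426) and without a library (range −0.0687, without RT-MPs replicate 3, to 0.1135), and for Stat3 (−0.18) and Socs3 (−0.0725) after rescaling. Relative to the median change over the tested genes, Stat3 was between 0.13 and 0.23 and Socs3 between 0.17 and 0.42 under all alternatives. Csf1, at −0.0661 to 0.0517, and Csf2, at −0.0077 to 0.2135, lay on both sides of it. The cause of the turns was not tested. Lif was called under 12 of 16 alternatives and Csf3 under 5 of 15. With the replicate block 0 genes were called by limma (2620 at an unadjusted p under 0.05, 4 of them among the 10), and Lif had an adjusted p of 0.0834. Over genes, deviations of same-numbered libraries correlated at 0.096, −0.082 and −0.029, and those of other pairs at −0.11 to 0.119. With 3 libraries in each group this cannot decide whether same-numbered libraries shared a culture or a batch. Of the 10 genes and the related lists, limma voom called the same 9 genes as reported (Lif, Csf3, Clcf1, Tyk2, Sh2b3, Lcn2, Bcl3, Mcl1 and Zc3h12a). With arrayWeights the STAT3 target list had 14 calls (10 higher, 4 lower) in 19 tested genes and the mRNA decay list 6 in 10. ArrayWeights called 1281 of all 11915 tested genes higher and 3295 lower. After rescaling to a common sum both lists had 0 calls by limma, beside 46 over all tested genes. Low read numbers limit Csf3, Il6, Il11 and Lifr.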
